A study of Homo sapiens with 6 samples.

Results

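The genes described here lie in a stretch of the long arm of chromosome 20 next to the centromere, called 20q11. They are 47 protein-coding genes given by name, and all 47 stood on a single row in each of the 6 deposited tables of 60725 rows. Of these, 46 reached the mean level of 1 TPM needed for testing, as did 14781 genes in all. TPM, transcripts per 1000000, is a transcript's share of its library after division by its length. The 47 were chosen by position and by their measured log2 change between the same 6 libraries. Their differences, and their calls in a fit over all genes, are thus given below as a description and not as a test.

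RNA came from xenografts, tumours grown in a host from the established human liver cancer line MHCC97L. The tested xenografts were given recombinant human lumican (rhLUM, 3 libraries), and the others were the controls (Ctrl, 3 libraries). Lumican is a secreted proteoglycan of the extracellular matrix. Host strain and age, the dose, route and duration of rhLUM and whether each library stands for its own tumour were not given in the sources used here. Each p-value below is thus set against the spread of these 6 libraries alone, which may be technical.

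Genes that sit side by side on a chromosome share no common pathway by that fact, but they share their DNA copy number, their replication timing and parts of their chromatin environment. Gains of 20q are known from many epithelial tumours and from cultured human cells, and genes of 20q11 such as BCL2L1 and TPX2 are often named in that context. The deposited tables measure RNA alone and hold no measurement of DNA copy number.

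The members span 6.61 Mb, chr20:31514410-38127780 (GRCh38), between HM13 at the centromeric end and RPRD1B at the other. With rhLUM, most of them had higher TPM relative to the other genes of the same libraries, by unequal amounts. The median log2 change of the 46 members, rhLUM minus Ctrl on the log2(TPM + 1) scale, was 0.54, and that of all 14781 tested genes was 0.16. The relative log2 change of a gene, used from here on, is its log2 change minus that 0.16. It had a median of 0.37 over the members, with quartiles at 0.036 and 0.65, against quartiles at -0.39 and 0.37 over all tested genes. Among the members it ran from 1.36 for RBL1 to -0.85 for SPAG4, and 35 of 46 were above 0, as are 50% of all tested genes by construction. Of the 11662 tested coding genes, 55.3% were above 0.

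The members were chosen from the same 6 libraries, so their values per library are a description. The members' median log2 difference from the Ctrl mean, minus that of all tested genes, was 0.35, 0.41 and 0.37 in rhLUM libraries A, B and C, against 0.0039, -0.012 and 0.010 in Ctrl libraries A, B and C. The groups did not overlap. The Ctrl values centre near 0 by construction, since the mean of the Ctrl libraries was subtracted. Summed over the 47 members, TPM was 3430, 3395 and 3436 in the rhLUM libraries and 2436, 2398 and 2397 in the Ctrl libraries, a ratio of 1.42 between the group means. The sum is weighted towards abundant members.

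In the fit over all genes (limma, adjusted p under 0.05), 35 of 46 members lay past the threshold as higher, where 44.5% of all tested genes did, and 4 as lower, where 22.3% did. In either direction 66.8% of tested genes passed. The 4 were SPAG4, CDK5RAP1, CTNNBL1 and NCOA6. CTNNBL1 no longer passed without Ctrl library A or C, without rhLUM library A or B, with no filter on low values, without the variance trend or with a replicate block. For 36 of 46 members the lowest rhLUM library stood above the highest Ctrl library, against 47% of tested genes, and for 5 the groups were apart in the other direction, against 24.3%. Mean TPM was at least 2 times higher with rhLUM for 10 of 46 members, against 9.73% of tested genes, and for none was it at least 2 times lower, against 8.04%. Over the 11662 tested coding genes alone, 51.9% were higher and 20.7% lower past the threshold. Every rhLUM library was above every Ctrl library in 54.7% of them and below in 22.4%. Mean TPM was at least 2 times higher in 9.84% and at least 2 times lower in 4.53%. The members' counts come from the contrast that chose the members, so here and under the other settings below they are a description only.

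**Figure D1:**
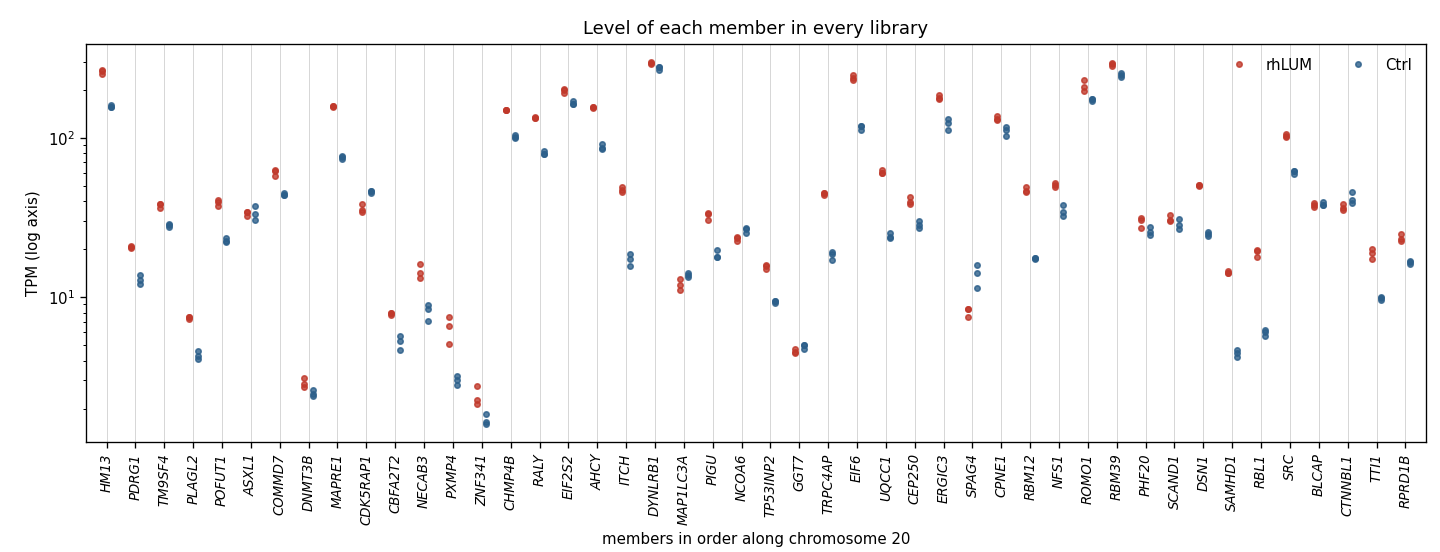
TPM (log axis) of the 46 tested members in every library, in order along chromosome 20, with 3 rhLUM libraries and 3 Ctrl libraries per gene. In 36 members every rhLUM point lies above every Ctrl point, and SPAG4, CDK5RAP1, CTNNBL1, NCOA6 and MAP1LC3A show the opposite.

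The genes of chromatin and transcription had the smallest median, 0.095 over 10 members, with 6 above 0. RBL1 encodes a pocket protein related to the retinoblastoma protein that represses E2F targets. It had 19.60, 17.82 and 19.87 TPM in rhLUM and 6.21, 5.74 and 6.05 in Ctrl, 3.18 times higher and the largest relative change of any member (1.36). DNMT3B, a methyltransferase that sets new DNA methylation, had 2.74, 2.86 and 3.12 TPM in rhLUM and 2.46, 2.41 and 2.61 in Ctrl. Its groups did not overlap, but its relative log2 change was -0.000063, so it moved as the median gene did. ASXL1, a chromatin regulator linked to Polycomb and mutated in myeloid cancers, had 32.50, 34.09 and 34.05 TPM in rhLUM and 37.39, 33.37 and 30.59 in Ctrl. The 3 rhLUM values lie inside the Ctrl range.

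NCOA6, a coactivator of nuclear receptors, had 23.87, 22.64 and 23.58 TPM in rhLUM and 26.83, 27.29 and 25.32 in Ctrl, with every rhLUM library lower. PHF20, a chromatin reader of a histone acetyltransferase complex, had 27.06, 31.37 and 30.46 TPM in rhLUM and 25.62, 24.58 and 27.42 in Ctrl, a relative log2 change of 0.027. SCAND1, a SCAN-domain protein, had 32.69, 30.09 and 30.51 TPM in rhLUM and 28.52, 26.77 and 31.10 in Ctrl, at -0.052. In both PHF20 and SCAND1 the groups overlapped. The remaining genes of this group were the zinc-finger factor PLAGL2 (0.50, or 0.20 corrected for transcript length and G and C content), the corepressor CBFA2T2 (0.36, or 0.0069 and no longer past the threshold with that correction), RPRD1B (0.32), a regulator of RNA polymerase II, and the zinc-finger factor ZNF341 (0.16).

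Of the 4 genes of RNA binding and splicing, 3 were above 0, with a median of 0.32. RBM12, an RNA-binding protein, had 49.32, 45.50 and 46.44 TPM in rhLUM and 17.43, 17.69 and 17.64 in Ctrl, 2.68 times higher (relative log2 change 1.21). RBM39, a splicing factor and the most abundant gene of the group, had 290.77, 283.61 and 296.48 TPM in rhLUM and 256.09, 249.01 and 240.48 in Ctrl. Its groups did not overlap, yet it stood close to the median gene at 0.063. CTNNBL1, a component of spliceosomal complexes, had 35.24, 36.22 and 38.27 TPM in rhLUM and 45.74, 39.05 and 40.59 in Ctrl, at -0.35. RALY, an hnRNP-like protein, stood at 0.58.

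Among 5 genes of translation and of amino acid or nucleotide metabolism, the median was 0.65 and 4 were above 0. SAMHD1, a phosphohydrolase that degrades deoxynucleotides, had 14.11, 14.22 and 14.68 TPM in rhLUM and 4.44, 4.24 and 4.65 in Ctrl, 3.23 times higher. That was the highest ratio of mean TPM among the 46 tested members. EIF2S2, the beta subunit of the initiation factor that brings the first tRNA to the ribosome, had 192.35, 201.85 and 198.18 TPM in rhLUM and 163.77, 170.67 and 162.67 in Ctrl. It was the most abundant of the group, with groups apart, but at 0.091 it was close to the median gene. EIF6, which keeps ribosomal subunits from joining, averaged 237 ± 8.97 TPM in rhLUM and 116 ± 3.73 in Ctrl (SD, n = 3 each). AHCY, which hydrolyses S-adenosylhomocysteine, averaged 155 ± 1.16 TPM in rhLUM and 87.7 ± 2.95 in Ctrl (SD, n = 3 each). GGT7, of the gamma-glutamyltransferase family, was the exception, with 4.43, 4.50 and 4.76 TPM in rhLUM and 4.99, 5.04 and 4.71 in Ctrl, where the groups overlapped.

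Of 5 genes of mitochondria and peroxisomes, 4 were above 0, with a median of 0.37. UQCC1, an assembly factor of respiratory complex III, had 60.41, 60.14 and 62.81 TPM in rhLUM and 23.97, 23.64 and 25.14 in Ctrl, 2.52 times higher. ROMO1, a small mitochondrial membrane protein, had 208.89, 197.44 and 229.16 TPM in rhLUM and 175.57, 169.31 and 174.31 in Ctrl. Its relative log2 change was 0.13, and its rhLUM libraries were more spread (SD 16.1 TPM) than its Ctrl libraries (SD 3.31 TPM). CDK5RAP1, which modifies mitochondrial tRNAs, had 35.36, 38.66 and 34.31 TPM in rhLUM and 44.95, 46.39 and 46.25 in Ctrl, at -0.50. NFS1, the cysteine desulfurase of iron-sulfur cluster synthesis, stood at 0.37 and the peroxisomal membrane protein PXMP4 at 0.70.

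The 5 genes of microtubules, centrosome, kinetochore and nuclear envelope held the member with the lowest relative change. SPAG4, a SUN-domain protein of the nuclear envelope, had 8.48, 7.52 and 8.37 TPM in rhLUM and 11.46, 15.83 and 14.12 in Ctrl, 0.59 times the Ctrl level (relative log2 change -0.85). DYNLRB1, a dynein light chain and the most abundant of the 47 members, had 298.01, 295.33 and 290.68 TPM in rhLUM and 276.85, 266.02 and 277.68 in Ctrl. Its groups were apart, but its change was smaller than that of the median gene (-0.053). MAPRE1, the microtubule plus-end protein also called EB1, averaged 157 ± 1.82 TPM in rhLUM and 75.4 ± 1.81 in Ctrl, and DSN1, a kinetochore subunit, 50.2 ± 0.65 in rhLUM and 24.9 ± 0.66 in Ctrl (SD, n = 3 each). The centrosomal linker protein CEP250 stood at 0.32.

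The largest group, 12 genes of membranes, the secretory path, ubiquitin and autophagy, had 11 above 0 and a median of 0.45. ITCH, a ubiquitin ligase, had 46.81, 49.00 and 45.89 TPM in rhLUM and 15.70, 17.37 and 18.53 in Ctrl, 2.75 times higher (1.25). TRPC4AP, a substrate adaptor of a cullin ubiquitin ligase, had 45.13, 45.07 and 43.64 TPM in rhLUM and 19.21, 16.99 and 18.67 in Ctrl, 2.44 times higher (1.08). Both belong to the 6 members with the largest relative change. HM13, the signal peptide peptidase of the endoplasmic reticulum and the most abundant of the group, had 266.40, 253.10 and 263.65 TPM in rhLUM and 155.01, 160.94 and 156.49 in Ctrl, at 0.56. MAP1LC3A, an LC3 protein of autophagosomes, was the exception, with 11.97, 11.05 and 13.09 TPM in rhLUM and 13.82, 14.09 and 13.32 in Ctrl, every rhLUM library lower (-0.34).

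Other genes of that group had intermediate values. The GPI transamidase subunit PIGU stood at 0.62, POFUT1, which adds O-fucose to Notch receptors, at 0.60, and TP53INP2, which acts in autophagy, at 0.52. The ESCRT-III subunit CHMP4B stood at 0.39, the cargo receptor ERGIC3 at 0.38, COMMD7 at 0.29, TM9SF4 at 0.25 (0.027 and no longer past the threshold with the length and G and C correction) and the copine CPNE1 at 0.10.

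Of the 5 tested genes of signalling and other roles, 4 were above 0, with a median of 0.58. SRC, the tyrosine kinase, had 105.95, 102.75 and 101.44 TPM in rhLUM and 62.32, 59.56 and 61.98 in Ctrl, 1.69 times higher. TTI1, a cofactor in the folding of PI3K-related kinases, stood at 0.69, NECAB3 at 0.60 and PDRG1 at 0.48. BLCAP was at -0.18, with 36.86, 38.78 and 38.05 TPM in rhLUM and 39.52, 38.08 and 38.00 in Ctrl, and its groups overlapped. DUSP15, a dual-specificity phosphatase, was the member under the minimum, averaging 0.13 ± 0.067 TPM in rhLUM and 0.017 ± 0.029 in Ctrl (SD, n = 3 each). The lowest member above it was ZNF341, with a mean of 2.05 TPM over the 6 libraries against 0.072 for DUSP15.

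**Figure D2:**
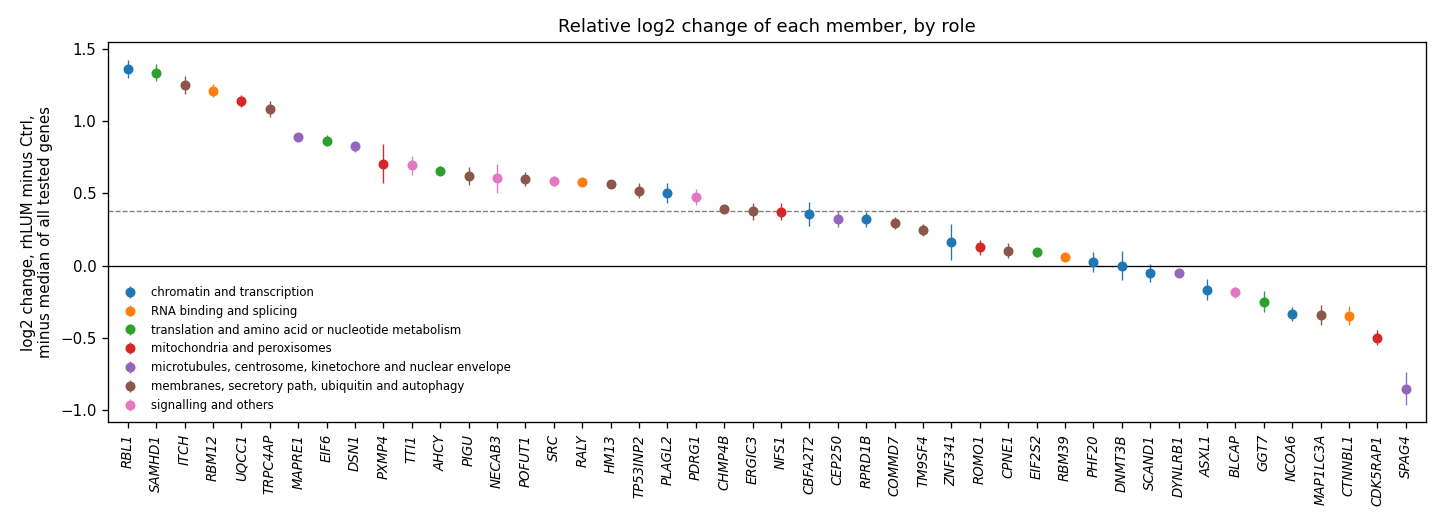
Relative log2 change (rhLUM minus Ctrl, minus the median of all tested genes) of the 46 tested members in descending order, coloured by role, with bars for the standard error of the fit. The dashed line is the members' median of 0.37, and the values go from 1.36 for RBL1 to -0.85 for SPAG4, with several roles at both ends.

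A total of 3 pairs of neighbouring members have RefSeq starts within 1000 bases of each other on opposite strands and point apart, so that in RefSeq one stretch of DNA lies upstream of both genes. They are shown because the 2 genes of such a pair lie closest to each other of all members that point apart. The stretches between the starts (RefSeq sequence, GRCh38.p14, plus strand, 5′ to 3′) are printed, the last only in part, with matches to any of 6 searched motifs in capitals.
PLAGL2 and POFUT1, chr20:32207744-32207879: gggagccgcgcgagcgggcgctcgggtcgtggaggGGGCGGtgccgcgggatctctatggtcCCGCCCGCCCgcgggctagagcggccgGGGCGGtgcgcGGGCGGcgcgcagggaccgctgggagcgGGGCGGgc
NFS1 and ROMO1, chr20:35699353-35699404: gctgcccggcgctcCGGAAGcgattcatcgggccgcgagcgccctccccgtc
TTI1 and RPRD1B, chr20:38033457-38033545: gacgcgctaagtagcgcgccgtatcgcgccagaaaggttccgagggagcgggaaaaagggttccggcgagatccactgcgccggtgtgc

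The 136 bases between PLAGL2 and POFUT1 are 83.8% G or C and hold 6 GC boxes, of which a pair overlaps. The 52 bases between NFS1 and ROMO1 hold 1 ETS core, and the 89 printed bases between TTI1 and RPRD1B hold none of the searched letters. Starts differ between RefSeq and GENCODE in all 3 pairs. In GENCODE, NFS1 and ROMO1 overlap by 88 bases and the printed stretch lies within ROMO1. The last stretch ends at GENCODE's RPRD1B start, which is the earlier one. The RefSeq starts of TTI1 and RPRD1B are 290 bases apart, and the rest of that gap is not in the printed stretch. Within the pairs, the relative log2 changes were 0.50 for PLAGL2 and 0.60 for POFUT1, 0.37 for NFS1 and 0.13 for ROMO1, and 0.69 for TTI1 and 0.32 for RPRD1B. All 6 lay above 0, as did 35 of 46 members.

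Promoter windows of 300 bases, 250 before and 50 after the start, were found for 39 of 47 members. Their median G and C content was 66.3%, against 62.7% over 15843 coding genes and 58.3% over all 27305 symbols. Neither of these wider sets was limited to genes tested here, while all members but DUSP15 reached the minimum level. The part of expression level in the shares below was not tested. Motifs were searched on both strands by their letters. The GC box GGGCGG stood in 22 of 39 member windows (56.4%), against 58.5% of coding genes and 44.6% of all symbols. The ETS core CGGAAG stood in 18 (46.2%), against 25.6% and 19.9%, the NRF1 motif in 8 (20.5%), against 8.58% and 6.28%, and the CRE letters TGACGTCA in 4 (10.3%), against 2.59% and 1.98%. The CCAAT box CCAAT was found in 10 (25.6%), against 36.4% and 35.7%, and the TATA box TATAAA in 2 (5.13%), against 9.63% and 11.95%. A match is a run of letters, not a site shown to be bound. A GC box or an ETS core can overlap another motif.

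Neighbours on overlapping stretches of DNA were not always alike. CPNE1 and RBM12 are annotated on the same strand with a common outermost start and share 16032 bases, yet they stood at 0.10 and 1.21. The division of reads between them is uncertain. NCOA6 (-0.33) overlaps PIGU (0.62) and TP53INP2 (0.52) in the annotation, and RALY (0.58) overlaps EIF2S2 (0.091) on the opposite strand. The sources used here do not say whether counting used the strand. In all, 15 of 47 members overlapped a tested gene, and 5 have pseudogenes named after them, AHCY with 6 of these. The 31 tested members that overlap no tested gene had a median of 0.38.

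The annotation places 60 other coding genes in the interval, of which 27 met the minimum of 1 TPM. They are what the interval held besides the members, which were chosen by their change too, so they are not a set by position alone. Their median relative log2 change was 0.36, with 21 of 27 above 0, close to the members' 0.37 with 35 of 46. All 73 tested coding genes of the interval together had a median of 0.37, with 56 above 0. The 27 were more spread, with an interquartile range of 1.04 against 0.61 for the members and 0.77 for all tested genes. In the fit over all genes (limma, adjusted p under 0.05), 21 rose, where 44.5% of tested genes did, and 3 fell, where 22.3% did. Mean TPM was at least 2 times higher with rhLUM for 10 of 27, against 9.73%. Over tested coding genes alone these shares were 51.9%, 20.7% and 9.84%.

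The highest of these genes was MMP24, a membrane-type matrix metalloproteinase, which averaged 7.81 ± 0.32 TPM in rhLUM and 1.16 ± 0.032 in Ctrl (SD, n = 3 each; limma adjusted p = 1.55e-06). SOGA1, MROH8, EPB41L1, a cytoskeletal protein of the band-4.1 family, MCTS2P and TLDC2 followed, with relative log2 changes of 1.71, 1.69, 1.58, 1.41 and 1.30. All 6 rose, and in each every rhLUM library was above every Ctrl library. MCTS2P lies within HM13 on the same strand, and the division of reads between them is uncertain. TLDC2 overlaps SAMHD1 on the opposite strand, and both genes of that pair stood above 1.

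At the other end BPIFB1, a secreted protein of airway and mucosal surfaces, averaged 8.69 ± 0.51 TPM in rhLUM and 34.2 ± 1.25 in Ctrl (SD, n = 3 each; limma adjusted p = 4.21e-07). MYL9, a myosin light chain of contractile cells, and ID1, an inhibitor of basic helix-loop-helix factors, fell too, with relative log2 changes of -0.80 and -0.48 (limma adjusted p = 3.73e-04 and 1.06e-04). CNBD2, MANBAL and ACTL10, at -0.39, -0.093 and -0.035, did not pass the test. BCL2L1, an inhibitor of apoptosis, averaged 102 ± 3.42 TPM in rhLUM and 40.7 ± 0.82 in Ctrl, and TPX2, a spindle assembly factor, 121 ± 2.73 in rhLUM and 50.2 ± 0.47 in Ctrl (SD, n = 3 each). Both rose, with relative log2 changes of 1.15 and 1.09. The interval thus held genes with changes in both directions next to each other.

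**Figure D3:**
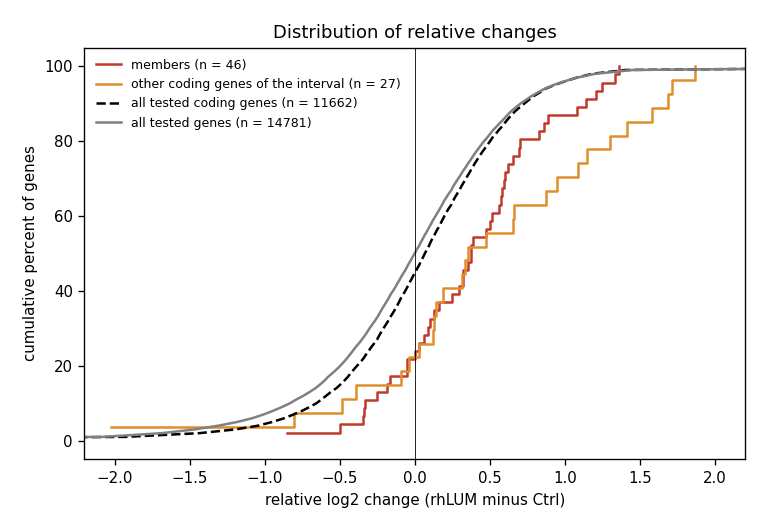
Cumulative percent of genes against relative log2 change (rhLUM minus Ctrl) for the 46 members, the 27 other coding genes of the interval, 11662 tested coding genes and all 14781 tested genes. The curves of the members and of the other genes of the interval lie to the right of both wider sets at the quartiles and cross 50% at 0.37 and 0.36, against 0.068 for coding genes.

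Along the interval the relative change showed little slope but was uneven. The tested coding genes of the interval were also taken in steps of 1 Mb from its start. The median was lowest from 4 to 5 Mb, at 0.12 over 13 genes, and highest from 5 to 6 Mb, at 0.83 over 13 genes. Across the 46 members the correlation of relative change with distance from the interval's start was 0.055 (Pearson) and 0.018 (Spearman), and with mean TPM -0.051 and -0.014. These are descriptions over genes that share the same 6 libraries. It went down with the G and C content of the transcript (Pearson -0.41, Spearman -0.33) and up with its length (0.25 and 0.34). Over the 12834 tested genes with both values, the Spearman correlations were -0.15 and 0.20. The members' transcripts had a median length of 1868 bases and 52.6% G and C, against 1664 bases and 49.4% over all tested genes. After a correction for length and G and C content the members' median was again 0.37.

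Higher values were not limited to the interval. Before its start, the 5 nearest tested coding genes were ABHD12, GINS1, NINL, NANP and ZNF337, from far to near, at 1.37, 0.84, -0.29, 0.58 and -0.17. No tested coding gene lay within 5 Mb of that end, where the centromere lies, and the 17 from 5 to 10 Mb away had a median of 0.71, with 15 above 0. The 20 from 10 to 15 Mb away had a median of 0.49. Beyond that the 4 steps had medians between -0.17 and 0.17, over 7, 9, 37 and 16 genes.

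Past the other end, the 5 nearest were LBP, RALGAPB, ACTR5, FAM83D and DHX35, at -5.75, 0.28, -0.23, 0.65 and 0.059. LBP encodes the lipopolysaccharide-binding protein and averaged 0.70 ± 0.046 TPM in rhLUM and 80.9 ± 2.82 in Ctrl (SD, n = 3 each). TGM2, a transglutaminase that lies across the end of RPRD1B on the opposite strand and entered neither the medians of the interval nor those beside it, had 57.9 ± 1.46 TPM in rhLUM and 148 ± 1.12 in Ctrl (SD, n = 3 each). The 10 tested coding genes within 5 Mb of that end had a median of -0.17, with 4 above 0. The 44 genes from 5 to 10 Mb had a median of 0.44, the 25 from 10 to 15 Mb 0.67 and the 9 from 15 to 20 Mb 0.46. The 27 genes from 20 to 25 Mb and the 27 beyond had medians of 0.046 and -0.17. Medians as high as that of the interval were thus also found in 5 Mb steps on both sides of it. No difference between these stretches was tested.

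**Figure D4:**
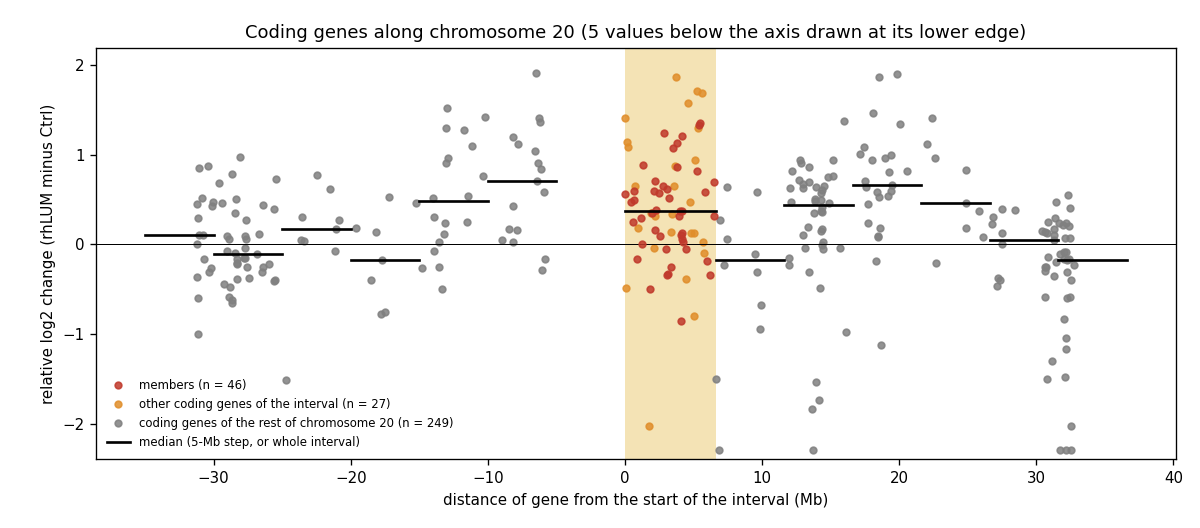
Relative log2 change of tested coding genes along chromosome 20 against distance from the start of the interval (Mb), with the 6.61 Mb interval shaded, 46 members, 27 other genes of the interval and 249 genes of the rest of the chromosome, TGM2 among them. Black lines are medians, 0.37 in the interval, 0.71 in the step from 5 to 10 Mb before it, -0.17 in the 5 Mb after it and 0.67 in the step from 10 to 15 Mb after it, and 5 genes below the axis are drawn at its lower edge.

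Of 23 chromosomes (1 to 22 and X), chromosomes 20 and 10 had the highest medians, 0.19 over 322 and 0.19 over 429 tested coding genes, and chromosome 19 the lowest at -0.067. The genes of chromosome 20 include the 46 members, which were chosen by this change. Outside the interval its medians were 0.12 over 106 coding genes before it and 0.18 over 142 after it, both below that of chromosome 10. The order of the chromosomes was not tested.

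Scaling changed how many members counted as higher or lower. Of the calls over all genes, 66.6% were higher as deposited, 52.7% with median-of-ratios scaling and 46.3% with upper quartile scaling. These scalings shifted the all-gene median log2 change by -0.15 and -0.21. Among the members, 30 were then higher and 7 lower with median-of-ratios scaling, where 34.3% of all tested genes were higher, and 29 and 9 with upper quartile scaling, where 30.2% were. As deposited, 35 and 4 were, against 44.5% of tested genes higher. The correction for length and G and C content gave 50.2% of calls higher, with 29 members higher and 4 lower, where 33.7% of genes were higher. The members' median relative log2 change was 0.36, 0.36 and 0.37 under these settings. With the correction, the relative changes of 17 of 46 members moved by over 1.5 times, some up and some down. Being a count of ratios, it includes small shifts of members near 0, such as CPNE1 from 0.10 to 0.16, and does not measure the size of the shifts.

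The libraries of a group correlated at 0.978 to 0.983 and those of different groups at 0.928 to 0.935 (Pearson, across genes, on the log2(TPM + 1) scale). Depth is unknown, since TPM keeps none. The mitochondrial share of TPM, 14.3 to 14.5% in rhLUM and 20.5 to 20.7% in Ctrl, moved with the groups. Rescaled without the mitochondrial genes, the members' median was 0.37. Of 11 markers of hepatocytes and liver cancer, 9 had a mean of at least 1 TPM, and APOA1 and APOA2 lay below it. The list summed to 4958 to 5000.4 TPM in rhLUM and 2733 to 2758 in Ctrl, most of it the keratins KRT8 and KRT18 and albumin. SERPINA1 went against the sum, with a mean of 208 TPM in rhLUM and 379 in Ctrl. AFP, with 28.6 TPM in rhLUM and 31.2 in Ctrl, and APOA2, with 0.083 in rhLUM and 0.38 in Ctrl, had lower means in rhLUM too. The 6 endothelial markers summed to 26.9 to 31.8 TPM in rhLUM and 21.6 to 23.01 in Ctrl, with VWF, TEK and EMCN under 1 TPM in every library. CDH5 went against this sum, with 0.45 TPM in rhLUM and 3.10 in Ctrl. The 7 fibroblast markers summed to 10.0 to 13.7 TPM in rhLUM and 14.4 to 15.4 in Ctrl. Of these DCN averaged 1.26 TPM in rhLUM and 7.96 in Ctrl, while COL1A1, with 5.11 in rhLUM and 3.30 in Ctrl, COL1A2 and COL3A1 had higher means in rhLUM. The 8 leukocyte markers summed to 303 to 308 TPM in rhLUM and 222 to 223 in Ctrl, nearly all of it LYZ and CD68, and PTPRC, which marks all leukocytes, was under 1 TPM. ITGAM went against the leukocyte sum, with means of 3.84 TPM in rhLUM and 8.01 in Ctrl. No listed gene was at 0 in all 6 libraries. Their part in the result was not tested, and in bulk samples fewer cells of a type and less RNA per cell cannot be told apart. The tumour line is human and the rows are human genes, so the endothelial, fibroblast and leukocyte sums do not count cells of the host. Whether reads of the host entered them is not known.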

How the data were processed

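Per the labels' protocols, poly-A RNA of the xenografts was sequenced as read pairs (KAPA mRNA HyperPrep libraries, Illumina NovaSeq). The submitters' processing notes name STAR 2.7.8, RSEM 1.2.31 and GRCh38. Annotation release, strand setting and any removal of mouse host reads were not given in the sources used here. The authors deposited TPM, per the file headers, 1 table per library, each summing to about 1000000.

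Here 2210 rows sharing 313 symbols were left out. Genes reaching a mean of 1 TPM over the 6 libraries were fitted with limma 3.58.1 in R 4.3.3 on log2(TPM + 1), allowing a mean-dependent variance (trend), with group as sole term (residual degrees of freedom, 4). Two-sided p-values were used, with Benjamini-Hochberg adjustment over all 14781 genes and a threshold of 0.05. The log2(TPM + 1) scale understates changes of low genes. With 3 libraries per group an exact permutation test reaches no p below 0.1 and was left out.

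Members, role groups and marker lists were chosen with earlier results of these data known. Members named with every library's value were the 6 with the largest and the 4 with the smallest relative change, those below 0 and the most abundant of each role group. Other genes named were the 6 highest and 6 lowest coding genes of the interval, the 5 nearest tested coding genes outside each end, and TGM2, for its position. EIF6, AHCY, MAPRE1, DSN1, DUSP15, BCL2L1 and TPX2 were given means after their values were seen. Coordinates, transcript lengths and G and C content came from GENCODE release 29 (GRCh38), matched by symbol, and promoter windows from RefSeq. Length and G and C content were found for 12834 tested genes (86.8%) and all 46 tested members. Alternatives were other scalings, pseudocount, filters, a replicate block, no trend, the length and G and C correction, and leaving out each library. Testing coding genes only was added after seeing the data.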

Additional observations from a re-analysis of the deposited data

How the results depend on the processing

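The members' median relative log2 change, 0.37, lay above 0 under all 16 alternatives. This median describes values that chose the members, so the alternatives are no test of it. It cannot change with a replicate block or without the trend, and the scalings nearly cancel in it. It was 0.52 with no filter on low values, which adds genes near 0 TPM to the median of all genes, 0.34 with at least 1 TPM required in all 6 tables and 0.31 against coding genes only. That of the other coding genes of the interval, 0.36, was 0.51 with no filter. Leaving out each library in turn gave 0.35 to 0.42 for the members and 0.35 to 0.41 for the other genes, with 34 to 35 members past the threshold as higher, 3 to 5 as lower and 9146 to 9380 genes past it in either direction. Deviations of same-lettered libraries correlated weakly (0.029, -0.023 and 0.084). With 3 libraries per group this cannot show whether the letters pair them, which the sources used here do not say. With a replicate block 34 members were higher, 3 lower and 9648 genes passed, against 35, 4 and 9870 without it. The members lost were PHF20 and CTNNBL1. Of 46 members, 32 stood above and 8 below the median of all genes in every setting, and the side of DNMT3B, DYNLRB1, EIF2S2, PHF20, RBM39 and SCAND1 depended on it. Among members past the threshold, log2 changes turned sign for DYNLRB1 with median-of-ratios scaling (-0.060), upper quartile scaling (-0.13), rescaling without mitochondrial genes (-0.00057) and the length and G and C correction (-0.033). They also did for PHF20 (-0.044) and RBM39 (-0.016) with upper quartile scaling, and for PHF20 (-0.045) and EIF2S2 (-0.061) with the correction. The scalings multiply each library by 1 factor and so move all log2 changes by about the same amount, and the relative change of DYNLRB1, -0.053, was -0.071 and -0.078 under the first 2. The cause of the turns under the correction was not tested. Among members not past the threshold, SCAND1 (-0.054 and -0.12 with these 2 scalings), DNMT3B (-0.014 with upper quartile scaling and -0.22 with the correction) and ASXL1 (0.068 without Ctrl library A and 0.016 without rhLUM library A) turned sign too. PHF20 lost its call without Ctrl library A or B and without rhLUM library B or C. Depth is unknown, so no counting interval can be given.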

Other observations

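Noncoding genes and pseudogenes of the interval were mostly too low to test. The annotation holds 104 of them, and 4 had a mean of at least 1 TPM. FER1L4, a pseudogene of the ferlin family between ERGIC3 and SPAG4, had 19.54, 17.34 and 17.44 TPM in rhLUM and 26.81, 25.42 and 25.02 in Ctrl, and fell (relative log2 change -0.65, limma adjusted p = 2.84e-04). Its 2 coding neighbours differed from each other, with ERGIC3 at 0.38 and SPAG4 at -0.85. RALY-AS1 and HM13-IT1, which overlap RALY and HM13, stood at -0.10 and -0.19 and did not pass the test, while RALY and HM13 stood at 0.58 and 0.56. AL121895.1, annotated as antisense, was listed at 19.55 TPM in rhLUM library C and at 0 in the other 5 libraries.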
